A study of Mus musculus with 17 samples.

Results

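The DEAD and DEAH box RNA helicases were followed as 48 genes of the 14245 measured in sorted mouse bone marrow. Their members were all genes whose symbol in the array annotation begins with Ddx or Dhx and a digit. Ddx58, Ddx60 and Dhx58, which sense viral RNA, and the Y-linked Ddx3y were left out. Each gene was read from its brightest probe set, that is, the one with the highest mean over the 17 arrays, out of 105 probe sets for the 48 genes. That mean, which takes no account of the groups, is the only measured value used to choose the probe set. The family itself was chosen with earlier results of these data known. All 48 genes passed the filter on dim probe sets. The symbols Ddx3y, Ddx19a and Ddx53 have no probe set with a single symbol among those tested.

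Total RNA of marrow cells from femurs and tibias was hybridised to 17 Affymetrix arrays in 2 batches. The cells had been stained for CD24, CD48 and Gr-1, surface proteins held by a glycosylphosphatidylinositol (GPI) anchor, and sorted into GPI-deficient (GPI-) and GPI-normal (GPI+) fractions. Pig-a encodes a subunit of the enzyme that begins GPI synthesis, so cells without it carry no anchored proteins. Batch 1 held GPI- cells of Pig-a knock-out mice (3 arrays) and GPI+ cells of Pig-a knock-out mice (3 arrays). Batch 2 held GPI- cells of C57BL/6 recipients of knock-out marrow (4 arrays), GPI+ cells of C57BL/6 mice grafted with wild-type marrow (3 arrays) and GPI+ cells of wild-type C57BL/6 mice that had received no graft (4 arrays). Donor knock-out marrow had been treated with 10 nM aerolysin, a toxin that kills cells bearing GPI-anchored proteins, for 30 minutes, and its recipients had been irradiated with 9 Gy. The labels do not say whether recipients of wild-type marrow were irradiated in the same way, nor which promoter drives the deletion, nor how old the animals were. Replicates are labelled biological but no animal is named, so each p-value rests on array-to-array spread, which may be partly technical.

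DEAD and DEAH box proteins use ATP to unwind short RNA duplexes or to strip proteins from RNA. In the nucleolus many of them remodel precursor ribosomal RNA, in the nucleus others drive the rearrangements of the spliceosome, and in the cytoplasm others act in export, translation and decay of mRNA. Marrow holds dividing precursors that build ribosomes at a high rate beside mature cells that build few.

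Values are log2 intensities, and a difference of 1 is a doubling. The 2 batches had been normalised separately by the authors, so levels were compared only within a batch. A gene is called higher or lower where limma's adjusted p, taken over all 14245 genes, is under 0.05. Neutrophil genes such as Ltf, Camp and Mpo, which mark marrow, were bright on all arrays. Cell makeup differed between the sorted fractions. The T and NK cell list (9 genes tested) had a mean level of 4.87 to 5.21 in knock-out GPI- arrays and 1.71 to 1.79 in knock-out GPI+ arrays, with 8 of 9 higher, and of 2.82 to 3.91 in the knock-out graft against 1.63 to 1.82 in the wild-type graft, with 7 of 9 higher. The neutrophil list was lower in knock-out GPI- arrays for 6 of 8 genes (8.98 to 9.13 against 10.02 to 10.06), and the list of dividing cells for 5 of 11 (5.55 to 6.08 against 6.18 to 6.21). Plasmacytoid dendritic cell genes were higher for 4 of 4 (5.53 to 5.67 against 3.59 to 3.71), B-cell genes for 5 of 7 (5.06 to 5.35 against 4.30 to 4.40), and plasma-cell genes were lower for 3 of 4 (4.53 to 5.27 against 6.24 to 6.42). The hybridisation controls, which are added to each sample, read 7.96 to 8.61 on knock-out GPI- and 6.18 to 6.62 on knock-out GPI+ arrays. The 3′ minus 5′ signal of Gapdh, an index of RNA quality, was -0.29 to -0.04 in the former and -1.03 to -0.997 in the latter. The 3 knock-out GPI+ arrays were closer together than those of any other group, with a median SD over the helicases of 0.0863 against 0.149 in knock-out GPI- arrays. The Y-linked Eif2s3y read 5.33 to 5.51 on all 6 arrays of batch 1 and 0.22 to 1.04 on the 11 arrays of batch 2, so the sex of the animals differs with the batch. Xist, which is made from an inactive X chromosome, read 3.84, 1.39 and 5.19 on the 3 knock-out GPI- arrays, where Eif2s3y was also present, and 1.43 to 1.78 on the knock-out GPI+ arrays. Fewer cells of a type and less RNA per cell cannot be told apart in such samples.

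In Pig-a knock-out marrow, helicase genes were higher in GPI- than in GPI+ cells and none was called lower. Of the 48, 14 were called higher (29.2%), where 14.8% of all genes were, and 0 were called lower, where 14.8% of all genes were. At an unadjusted p under 0.05, 21 were higher and 2 lower. The median difference over the 48 genes was 0.23 on the log2 scale, with 38 above 0, against -0.0057 over all genes. In 21 of the 48 every GPI- array lay above every GPI+ array (43.8%; 22% of all genes), and in 2 every one lay below (4.17%; 21.2% of all genes). The differences ranged from -0.39 to 1.01. The sorted fractions differed in T and NK, plasmacytoid dendritic, B, plasma, neutrophil and dividing-cell genes as given above. They also differed in hybridisation controls and the Gapdh ratio. Eosinophil and basophil genes were lower for 2 of 4, and megakaryocyte genes higher for 2 of 3. Of 6 monocyte and macrophage genes 1 was higher and 2 lower. The part of all these in the helicase differences was not tested.

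**Figure D1:**
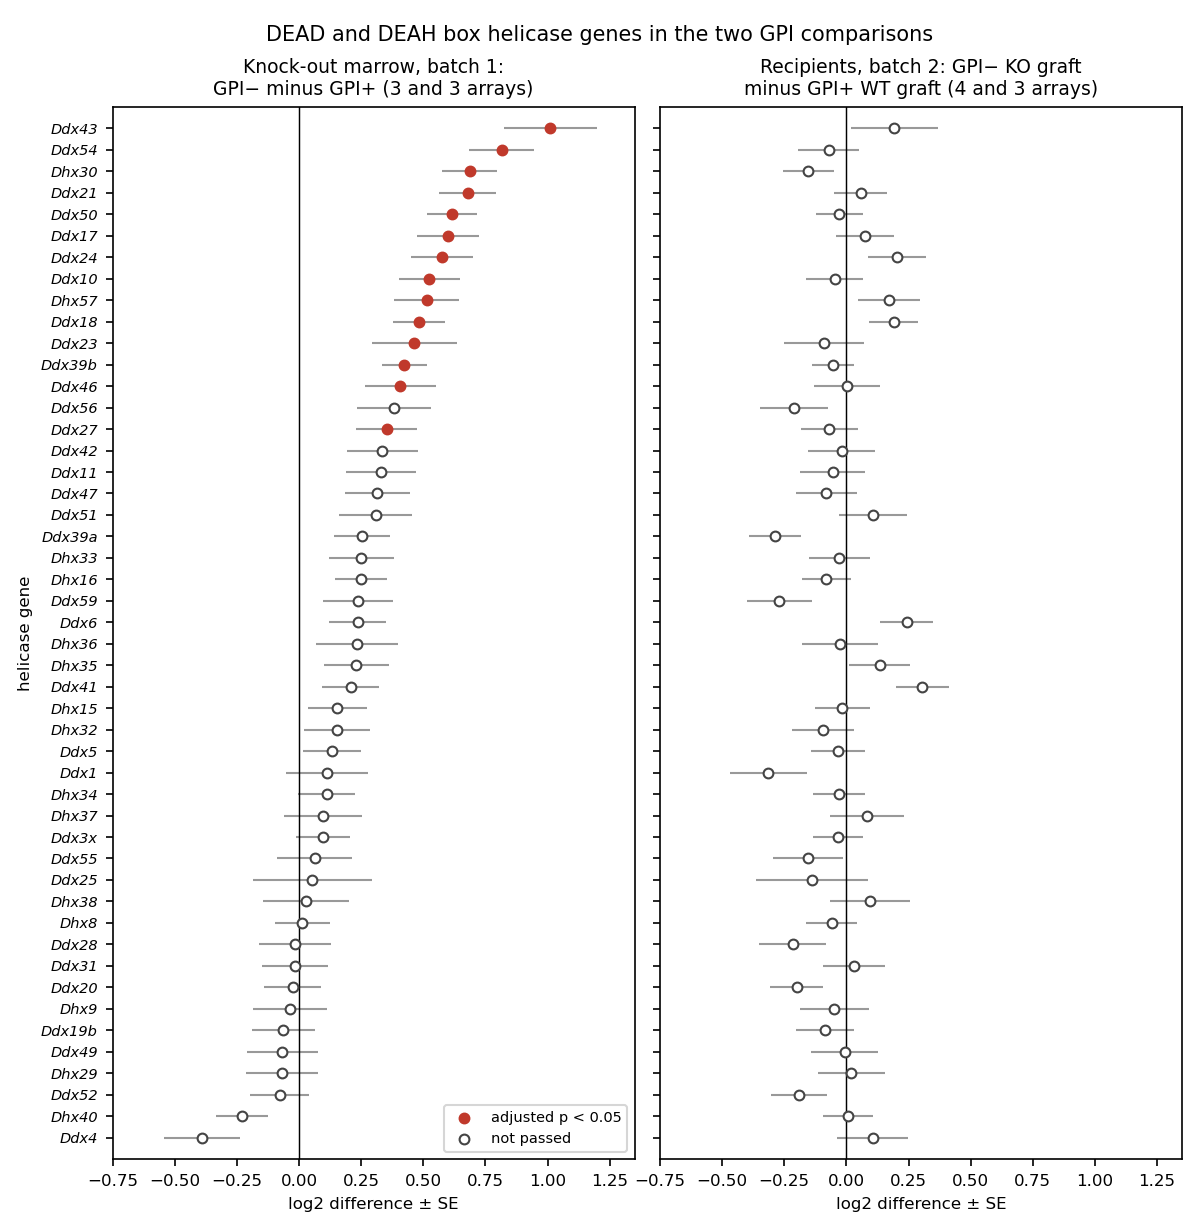
Log2 difference of each of the 48 helicase genes in the knock-out (GPI- minus GPI+, batch 1) and in the recipients (GPI- knock-out graft minus GPI+ wild-type graft, batch 2). In the knock-out 38 of the 48 lie above 0 and 14 are called, while in the recipients 17 lie above 0 and none is called.

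The helicases were grouped by role, with earlier results of these data known. Ribosome assembly, the largest of the role groups, held the largest share of the called genes. Of its 16 helicases 7 were called higher, where 14.8% of all genes were, with a median of 0.33 over the 16. Ddx54, whose yeast counterpart acts on the large ribosomal subunit, read 5.52, 5.62 and 5.71 in the GPI- arrays and 4.80, 4.83 and 4.77 in the GPI+ arrays. The groups did not overlap, and the difference was 0.82 ± 0.13 (SE), or 1.76-fold (adjusted p = 5.8e-05). Ddx21 and Ddx50, nucleolar helicases that are closely related to each other and whose genes are neighbours in the RefSeq annotation, both rose. Ddx21 read 4.15, 4.08 and 4.42 against 3.47, 3.61 and 3.53 (0.68 ± 0.12; adjusted p = 1.1e-04). Ddx50 read 4.87, 4.99 and 5.10 against 4.37, 4.39 and 4.35 (0.61 ± 0.10; adjusted p = 7.6e-05). In each, all GPI- arrays were above all GPI+ arrays. Ddx24, which matures the large subunit, rose by 0.58 ± 0.13 (adjusted p = 0.0014), with 4.05, 4.06 and 4.09 against 3.53, 3.37 and 3.58. Ddx10, whose yeast counterpart acts in early cleavage of precursor RNA, rose by 0.52 ± 0.12 (adjusted p = 0.0025), from 3.27, 3.26 and 3.33 to 4.03, 3.65 and 3.75. Ddx18 rose by 0.48 ± 0.11 (adjusted p = 0.0014) and Ddx27, a large-subunit factor, by 0.35 ± 0.12 (adjusted p = 0.034). The other 9 did not pass, among them Ddx56 (0.38; adjusted p = 0.057), Ddx47 (0.32; adjusted p = 0.077), Ddx52 (-0.08) and Ddx49 (-0.07). Without knock-out GPI- replicate 1 or 2, or without knock-out GPI+ replicate 1 or 2, Ddx27 missed the threshold, with adjusted p of 0.1, 0.078, 0.099 and 0.1.

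**Figure D2:**
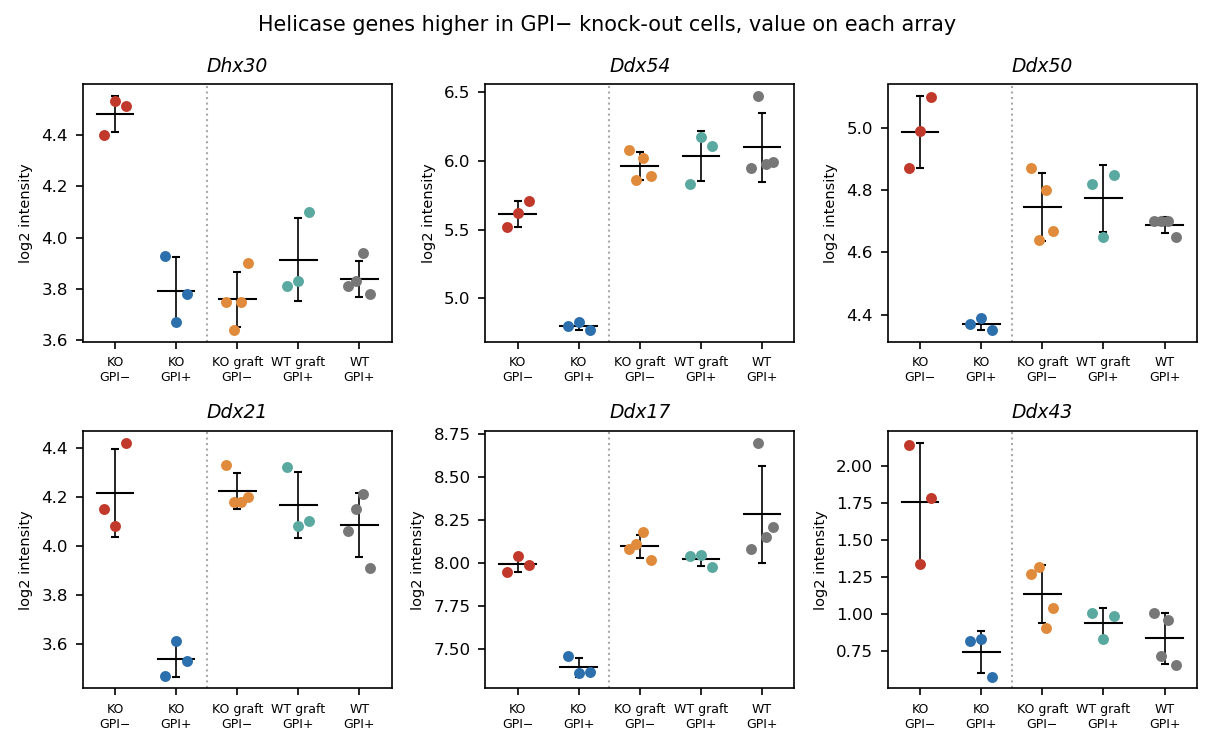
Log2 intensity of Dhx30, Ddx54, Ddx50, Ddx21, Ddx17 and Ddx43 on each array, with group mean ± SD; a dotted line separates batches that were normalised separately. In the knock-out, all GPI- points lie above all GPI+ points in each gene, whereas the 2 graft groups overlap.

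Of 12 splicing helicases 4 were called higher, where 14.8% of all genes were, with a median of 0.24. Ddx17, which acts in splicing and as a transcriptional coactivator, read 7.95, 8.04 and 7.99 against 7.46, 7.36 and 7.37, a difference of 0.60 ± 0.12 (1.52-fold; adjusted p = 9e-04). Its related gene Ddx5 was 8.38, 8.32 and 8.40 against 8.21, 8.22 and 8.27, and that difference of 0.13 did not pass (adjusted p = 0.44), although the arrays did not overlap. Ddx39b, which joins splicing to export of mRNA, read 7.01, 7.06 and 7.03 against 6.52, 6.64 and 6.66 (0.42 ± 0.09; adjusted p = 0.0013). Ddx46, needed for U2 snRNP to engage the branch point, was higher by 0.41 ± 0.14 (adjusted p = 0.036), and Ddx23, a helicase of the U5 snRNP, by 0.46 ± 0.17 (adjusted p = 0.047). Ddx23 arrays overlapped, with 1.61, 2.06 and 1.85 against 1.23, 1.27 and 1.63, and its call was lost under 18 of 26 alternatives. Among these were leaving out knock-out GPI- replicate 2 or 3, or GPI+ replicate 1 or 2 (adjusted p 0.17, 0.091, 0.16 and 0.14), and leaving out any of 7 arrays of batch 2 (adjusted p 0.051 to 0.054). Ddx46 missed the threshold without knock-out GPI- replicate 2 or 3, or GPI+ replicate 1 or 3 (adjusted p 0.059, 0.16, 0.18 and 0.063).

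Outside these 2 groups 3 helicases were called. Dhx30, which is needed for translation in mitochondria, read 4.40, 4.53 and 4.51 against 3.93, 3.67 and 3.78, and rose by 0.69 ± 0.11 (1.61-fold; adjusted p = 6.2e-05). Dhx57, whose role is poorly known, rose by 0.51 ± 0.13 (adjusted p = 0.0051). Ddx43, a gene known from testis and tumours, rose by 1.01 ± 0.19 (adjusted p = 2.9e-04), from 0.82, 0.83 and 0.58 to 2.14, 1.34 and 1.78. It was dim, with a mean percentile of 56.4 among probe sets in GPI- arrays and 23.1 in GPI+ arrays, so its fold is approximate. It reached the 40th percentile required by the filter on all 3 knock-out GPI- arrays and on only 2 others, so it entered the test through the group in which it is high, and its call is no support for the family. Without it 13 of 47 helicases were called higher, with a median of 0.23. None of the 7 helicases of export, translation and turnover passed in limma, where 14.8% of all genes were called higher. Their median was 0.11, and 1 was higher at limma's unadjusted p under 0.05. They include the X-linked Ddx3x, which read 7.08, 7.08 and 7.39 in GPI- arrays and 7.07 to 7.10 in GPI+ arrays (0.10; adjusted p = 0.55). Replicate 3, which reads 7.39, is the one with the brightest Xist. Replicate 1, with Xist at 3.84, read 7.08, as did replicate 2 with Xist at 1.39. Replicate 3 was also the highest knock-out GPI- array in 21 of the 48 helicases (43.8%, against 33.7% of all genes). Ddx4, the germ-cell helicase Vasa, and Dhx40 were the 2 genes whose arrays all lay lower in GPI- cells, at -0.39 (adjusted p = 0.06) and -0.23 (adjusted p = 0.11). Ddx4 was under the 50th percentile in every group, as were Ddx25 and Dhx37. It passed the filter on 4 arrays, 2 of them knock-out GPI+, and the filter asks for 3. Ddx4 thus entered the test through the group in which it is high, and its lower values tell nothing about the family.

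**Figure D3:**
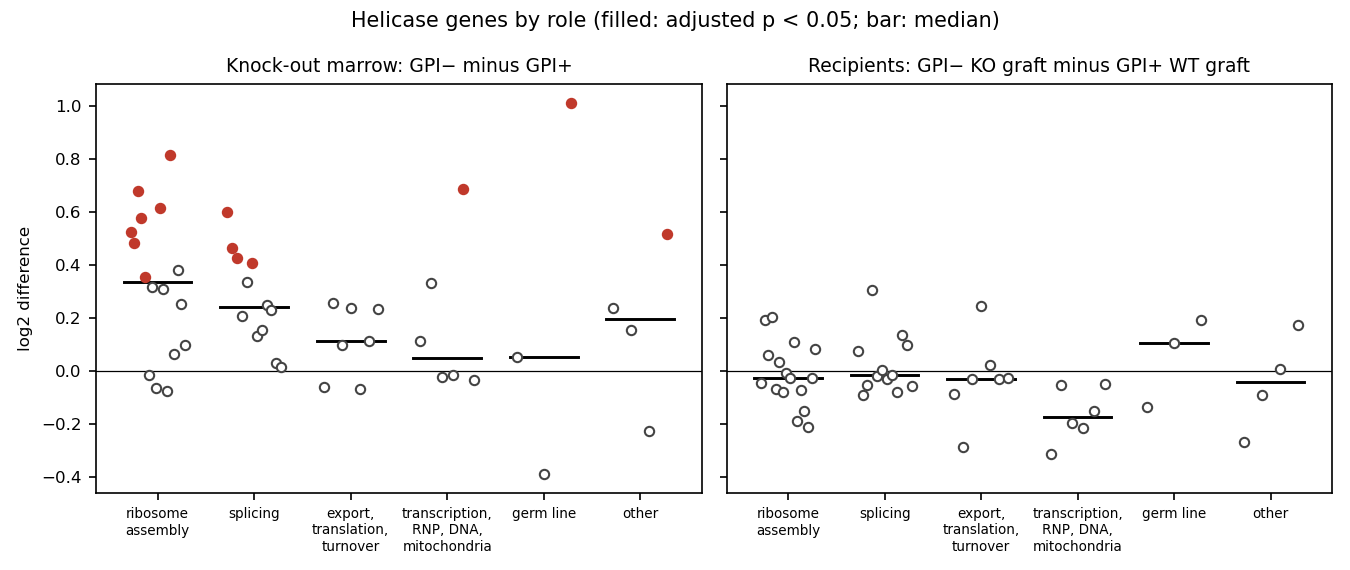
Log2 differences of the helicases in the knock-out and in the recipients, grouped by role, with each group's median. In the knock-out the ribosome assembly and splicing groups have medians of 0.33 and 0.24, and in the recipients -0.03 and -0.02.

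The threshold in an exact permutation test over 3 against 3 arrays cannot be passed, since its smallest p is 0.1. That value was reached by 13 of the 14 genes, and Ddx23 gave 0.2. Other probe sets of the same genes were not used to choose them, but they were read on the same arrays. Of the 14 genes, 12 had other probe sets that passed the filter, 22 in all. Of these, 19 were above 0 and 15 lay wholly higher in GPI- arrays, with a median of 0.42. Among the brightest probe sets of all genes 49.4% were above 0, 22% lay wholly higher and 21.2% wholly lower. The 3 further Dhx30 probe sets read 0.93, 0.72 and 0.58, and the further ones of Ddx54 read 0.59 and 0.22. The probe sets disagreed in Ddx17, where 1 of the others lay wholly lower (-0.54) and another was 0.42 higher. They also disagreed in Ddx46, whose 4 other probe sets gave 0.18, 0.03, -0.04 and -0.22, against 0.41 for the brightest. When all probe sets of a gene were averaged in place of taking the brightest, 4 of the 14 were no longer called. Ddx46 went to 0.07 (adjusted p = 0.69), Ddx17 to 0.16 (adjusted p = 0.21), Ddx27 to 0.22 (adjusted p = 0.11) and Ddx23 to 0.29 (adjusted p = 0.1). The other 10 stayed called. Of the 34 genes not called, 18 had 31 other probe sets, of which 18 were above 0, with a median of 0.03. Of the 31, 5 lay wholly higher (22% of all genes) and 3 wholly lower (21.2% of all genes). Those that lay wholly lower belong to Ddx6 (-0.31), Dhx29 (-0.64) and Dhx38 (-0.77), and in Ddx6 the brightest probe set lay wholly higher (0.24).

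**Figure D4:**
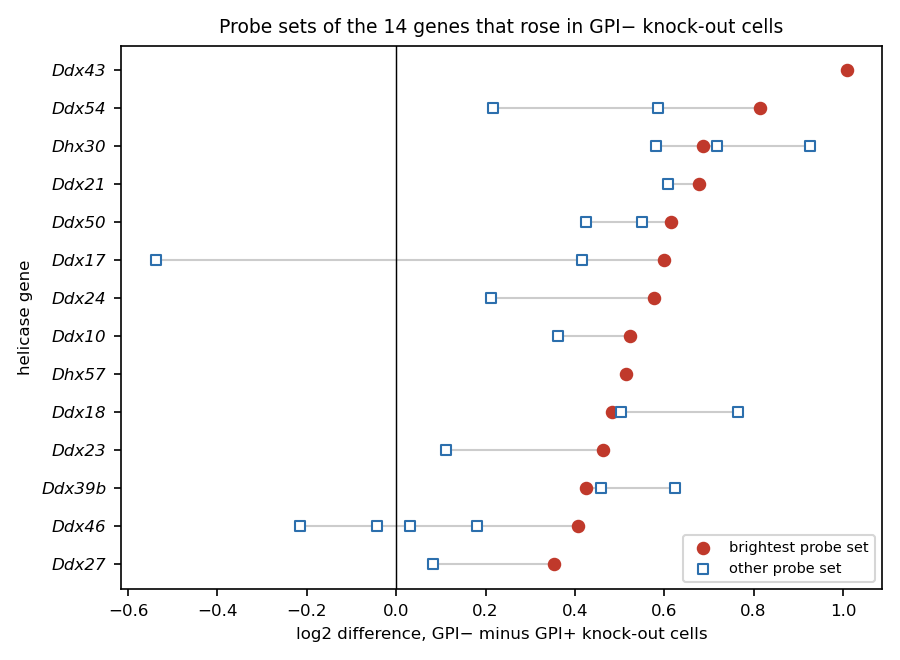
Knock-out log2 difference of the brightest probe set of each called gene beside that of its other probe sets. Most of the other probe sets lie above 0, and a Ddx17 probe set lies at -0.54.

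Averaging the 3 knock-out GPI+ arrays, which lay close together, into 1 sample left the differences unchanged. Fewer genes then passed, over all genes as well as among the helicases. Of the 14, Ddx17, Ddx21, Ddx43, Ddx50, Ddx54 and Dhx30 stayed called. Without knock-out GPI- replicate 1 or replicate 3, the arrays with Xist signal, 16 and 14 helicases were called higher (13.5% and 12.9% of all genes). Of these, 13 and 12 were among the 14. Each of these fits kept the other array with Xist signal, and no fit left out both.

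The promoters of Ddx54, Dhx30, Ddx50 and Ddx21, which were called under every alternative (as was the dim Ddx43), are shown because the knock-out result rests most on them. They were taken from RefSeq (GRCm38.p6) as 250 bases before to 50 after the start of each gene. Capitals mark CCGGAAG, a longer form of the GGAA core that ETS factors bind, or its reverse complement CTTCCGG.
Ddx54, chr5:120612880-120613179, plus strand: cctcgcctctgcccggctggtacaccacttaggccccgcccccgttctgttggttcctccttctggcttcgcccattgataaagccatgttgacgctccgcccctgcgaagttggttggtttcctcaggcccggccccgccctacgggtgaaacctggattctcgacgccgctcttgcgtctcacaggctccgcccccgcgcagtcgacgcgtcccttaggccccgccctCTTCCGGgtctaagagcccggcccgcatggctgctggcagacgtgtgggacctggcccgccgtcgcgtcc
Dhx30, chr9:110117567-110117866, minus strand: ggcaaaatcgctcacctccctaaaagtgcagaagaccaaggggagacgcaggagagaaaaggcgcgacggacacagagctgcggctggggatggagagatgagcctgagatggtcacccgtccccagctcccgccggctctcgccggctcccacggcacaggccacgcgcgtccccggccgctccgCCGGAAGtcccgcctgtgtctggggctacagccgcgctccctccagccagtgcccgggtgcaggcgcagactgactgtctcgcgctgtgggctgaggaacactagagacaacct
Ddx50, chr10:62651169-62651468, minus strand: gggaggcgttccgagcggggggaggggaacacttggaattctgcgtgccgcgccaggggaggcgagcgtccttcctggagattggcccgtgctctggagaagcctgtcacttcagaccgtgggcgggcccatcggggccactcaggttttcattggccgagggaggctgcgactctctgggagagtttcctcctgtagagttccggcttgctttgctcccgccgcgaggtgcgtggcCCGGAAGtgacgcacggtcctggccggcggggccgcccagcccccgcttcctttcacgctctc
Ddx21, chr10:62602249-62602548, minus strand: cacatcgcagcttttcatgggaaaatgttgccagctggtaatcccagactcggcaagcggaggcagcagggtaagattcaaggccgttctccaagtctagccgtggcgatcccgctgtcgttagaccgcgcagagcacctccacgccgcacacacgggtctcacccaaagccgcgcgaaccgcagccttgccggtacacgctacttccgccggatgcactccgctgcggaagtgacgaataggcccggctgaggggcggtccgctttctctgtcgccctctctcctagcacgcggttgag
The match lies 20 bases before the start site in Ddx54, 64 in Dhx30 and 13 in Ddx50. Ddx21 holds no match to CCGGAAG in this window, although the shorter GGAA occurs in it. Both strands were searched. RefSeq entries existed for 43 of the 48 genes, with 54 promoters in all. CCGGAAG was in 21 of those 54 (38.9%) and in 8.86% of all 32851 promoters. It was in 7 of 13 genes that rose and in 12 of 30 that did not. The E-box CACGTG was in 7 of 54 (13%) against 7.15%, and in none of the 13. TATAAA was in 4 (7.41% against 13.6%), and the longer sites of Nrf1 and Yy1 were in 3 (5.56% against 0.971%) and 1 (1.85% against 0.633%). These are descriptions of sequence, with no test.

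In the recipients, GPI- cells of the knock-out graft were compared with GPI+ cells of the wild-type graft. None of the 48 helicases was called higher, where 3.95% of all genes were, and none was called lower, where 3.45% were. At an unadjusted p under 0.05, limma gave 2 higher and 1 lower. The median was -0.03, with 17 genes above 0 and 31 below, and differences ran from -0.31 to 0.31. In 2 genes the arrays lay wholly higher (8% of all genes) and in 4 wholly lower (7.5%). Ddx41, a helicase of the spliceosome, had the smallest adjusted p (0.095) and read 3.02, 3.11, 3.27 and 3.15 against 2.94, 2.87 and 2.69 (0.31 ± 0.11; exact permutation p = 0.0286, the smallest that 4 against 3 arrays allow). Ddx39a, which acts in mRNA export, was lower on all arrays, at 6.81, 6.51, 6.72 and 6.40 against 6.96, 6.81 and 6.91 (-0.29; adjusted p = 0.11). Ddx6, a P-body helicase of mRNA decay, was higher on all arrays (0.24; adjusted p = 0.2). The 14 genes that rose in the knock-out gave differences from -0.15 to 0.20 here. Ddx54 read 6.08, 5.86, 6.02 and 5.89 against 5.83, 6.17 and 6.11 (-0.07; 95% interval -0.34 to 0.19). Dhx30 gave -0.15 (-0.38 to 0.07), Ddx50 -0.03 (-0.23 to 0.18), Ddx21 0.06 (-0.18 to 0.29) and Ddx17 0.07 (-0.18 to 0.33). Others leaned the same way as in the knock-out without passing, namely Ddx24 at 0.20 (-0.05 to 0.46), Ddx18 at 0.19 (-0.02 to 0.41), Ddx43 at 0.19 (-0.19 to 0.57) and Dhx57 at 0.17 (-0.10 to 0.44). T and NK cell genes were higher in the knock-out graft too, as given above, as were plasmacytoid dendritic cell genes for 4 of 4 (4.74 to 5.33 against 3.44 to 3.88), and all 11 genes of the dividing-cell list were lower there (5.58 to 5.88 against 6.39 to 6.64). Of 6 monocyte and macrophage genes 4 were higher and 2 lower. Of 4 eosinophil and basophil genes 2 were higher and 1 lower. Neutrophil genes were lower for 3 of 8 and erythroid genes for 2 of 7. The part of these lists in the helicase values was not tested.

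The difference between these 2 comparisons, which share no array, was tested as an interaction. The knock-out difference exceeded that in the recipients for 10 helicases (9.04% of all genes were called higher in it) and fell short for none (9.96% of all genes); at an unadjusted p under 0.05, limma gave 16 and 1. The median was 0.25, against 0.02 over all genes. Ddx54 differed by 0.89 ± 0.18 (adjusted p = 0.0014), Dhx30 by 0.84 ± 0.15 (adjusted p = 5.6e-04) and Ddx43 by 0.82 ± 0.26 (adjusted p = 0.029). Ddx43 entered the test through the group in which it is high, so its call here is no support for the family either. Ddx50 differed by 0.64 ± 0.14 (adjusted p = 0.0023), Ddx21 by 0.62 ± 0.16 (adjusted p = 0.008) and Ddx56 by 0.59 ± 0.20 (adjusted p = 0.045). Ddx10, Ddx39a, Ddx17 and Ddx39b made up the rest. Calls near the threshold depended on single arrays. Ddx56 missed it under 17 of 25 alternatives, Ddx17 under 13 and Ddx43 under 10, and each of these genes missed it, among other arrays, without knock-out GPI- replicate 3, knock-out GPI+ replicate 3 or either of wild-type graft replicates 1 and 3. Ddx10 missed it without knock-out GPI- replicate 1 or wild-type graft replicate 2 (adjusted p 0.058 and 0.063). Of the 14 genes called in the knock-out, 6 did not pass: Ddx27 (adjusted p = 0.084), Ddx23 (0.11), Ddx24 (0.14), Ddx46 (0.16), Ddx18 (0.17) and Dhx57 (0.2). With the knock-out GPI+ arrays averaged, fewer genes passed over all genes too, and of the helicases Ddx50, Ddx54 and Dhx30 remained. Batch, sex, the kind of control and transplantation all differ between the comparisons and cannot be told apart. B-cell genes were higher for 5 of 7 in knock-out GPI- cells and for none in the recipients. In the interaction 8 of 9 T and NK genes, 5 of 7 B-cell genes and 2 of 4 plasmacytoid dendritic cell genes were higher. Lower were 6 of 8 neutrophil, 4 of 6 monocyte and macrophage, and 2 of 4 eosinophil and basophil genes. Of 4 plasma-cell genes 3 were lower and 1 higher. Erythroid genes were higher for 2 of 7, dividing-cell genes for 2 of 11 and megakaryocyte genes for 1 of 3. The part of these lists was not tested.

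Against wild-type mice with no graft, GPI- cells of the knock-out graft had 1 helicase higher (6.84% of all genes) and 3 lower (5.55%). Arrays lay wholly higher in 1 (9.32% of all genes) and wholly lower in 2 (7.01%). This comparison shares its arrays with that of the recipients. Dhx16, which remodels the activated spliceosome, read 4.32, 4.62, 4.58 and 4.60 against 4.85, 5.07, 4.94 and 4.95 in wild type, and the groups did not overlap (-0.43 ± 0.09; adjusted p = 0.0031). Ddx5, related to Ddx17, read 8.69, 8.58, 8.82 and 8.70 against 9.14, 9.40, 8.91 and 8.92 (-0.40 ± 0.10; adjusted p = 0.011). Its 5 other probe sets gave -0.26, 0.00, -0.12, 0.08 and 0.14, and their mean with it was not called (adjusted p = 0.75). Dhx9, RNA helicase A, read 6.22, 6.19, 6.66 and 6.41 against 6.84, 7.24, 6.63 and 6.77, with overlap (-0.50 ± 0.13; adjusted p = 0.013). Dhx35, a component of the spliceosome, was higher, at 2.59, 2.65, 2.58 and 2.46 against 2.09, 2.16, 2.25 and 2.37 (0.35 ± 0.11; adjusted p = 0.045). Without wild-type replicate 2, Dhx9 missed the threshold (adjusted p = 0.055), as it did with its probe sets averaged (adjusted p = 0.25). Dhx35 missed it without wild-type replicate 1, 2 or 3 (adjusted p 0.13, 0.11 and 0.076), without any 1 array of the knock-out graft (0.054 to 0.11), and under 15 of 26 alternatives in all. Erythroid genes were lower in the knock-out graft for 6 of 7 markers (3.56 to 4.89 against 5.41 to 5.89) and dividing-cell genes for 10 of 11 (5.58 to 5.88 against 6.34 to 6.54). T and NK cell genes were higher for 7 of 9 (2.82 to 3.91 against 1.81 to 2.39) and plasmacytoid dendritic cell genes for 4 of 4 (4.74 to 5.33 against 4.02 to 4.22). Of 6 monocyte and macrophage genes 4 were higher and 2 lower (4.77 to 5.19 against 5.04 to 5.28). Plasma-cell genes were higher for 2 of 4, eosinophil and basophil genes for 2 of 4, and stem and progenitor genes for 2 of 3. B-cell genes were lower for 2 of 7, neutrophil genes for 1 of 8 and megakaryocyte genes for 1 of 3. The part of all these in the helicase values was not tested.

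**Figure D5:**
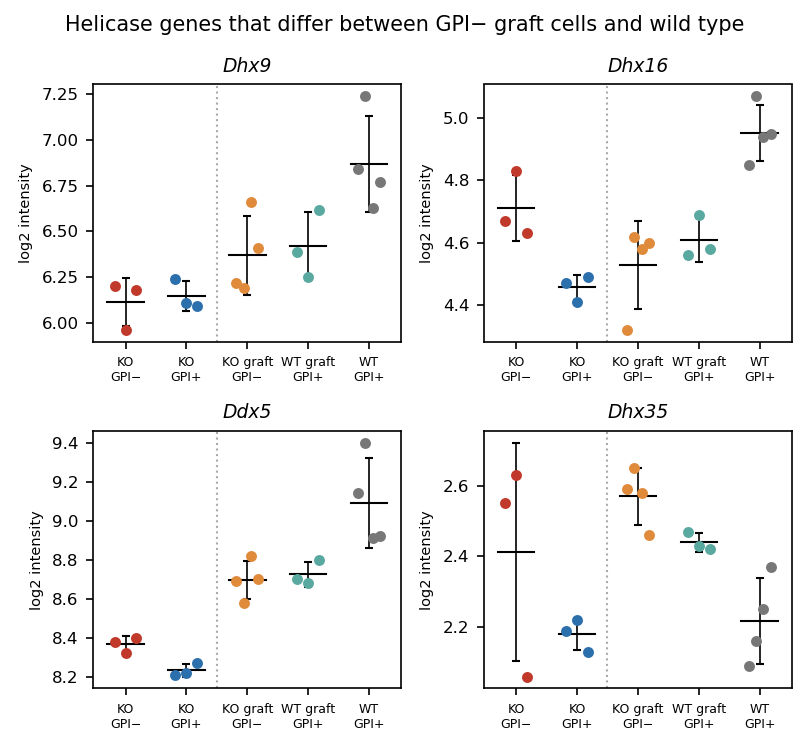
Log2 intensity of Dhx9, Dhx16, Ddx5 and Dhx35 on each array, with group mean ± SD; the dotted line separates the batches. For Dhx16 and Ddx5 the wild-type points lie above all points of both graft groups, and for Dhx35 below them.

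GPI+ cells of the wild-type graft, compared with the same wild-type arrays, had no helicase called higher (0.449% of all genes) or lower (0.393%). At an unadjusted p under 0.05, limma gave 4 higher and 6 lower. Arrays lay wholly higher in 5 (8.03% of all genes) and wholly lower in 6 (5.85%). Dhx16 gave -0.34 (adjusted p = 0.098), Ddx5 -0.37 (adjusted p = 0.12) and Dhx9 -0.45 (adjusted p = 0.13), beside -0.43, -0.40 and -0.50 in the knock-out graft. Ddx6 had the smallest adjusted p, at 0.081 (-0.40).

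Genes that work with the helicases were read from lists, which were written with earlier results of these data known. In the knock-out 14.8% of all genes were called higher and 14.8% lower. There, 14 of 31 ribosome assembly factors were called higher and none lower, with a median of 0.33. Nop56, a core protein of box C/D particles, rose by 1.05 ± 0.13, Npm1 by 0.59, Ncl by 0.47 and Myc, a transcription factor that drives ribosome genes, by 0.79 ± 0.15 (adjusted p = 4e-04). None of the 31 was called by limma in the recipients (median -0.04), where 0 were higher and 2 lower at an unadjusted p under 0.05. In the interaction 11 were called higher, where 9.04% of all genes were. Of 19 spliceosome genes 7 rose, Prpf8 by 0.67 ± 0.12 and Sf3b1 by 0.44 among them, and Sf3b2 fell by 0.44. Nxf1, the mRNA export receptor, rose by 1.06 ± 0.12; it and Thoc1 (0.50) were the 2 called of 8 exon junction and export genes. RNA helicases under other names were mixed: of 12, 4 rose (Eif4a2, Snrnp200, Aqr and Dicer1) and Mov10 fell by 0.64. Eif4a2 was also called higher by limma in the recipients (0.38, adjusted p = 0.044), where 3.95% of all genes were.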

How the data were processed

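The authors deposited 1 value per probe set and array on a log10 scale. The base was read from the values. No source used here gives the background correction or the summary of probes; the submitters' processing notes name GCOS, without a role. Sorted values are identical between arrays of a batch, so the table was quantile-normalised per batch by the authors. They were converted to log2, since the design had assumed log2 values, and arrays were centred on a common median.

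After leaving out 64 control probe sets, 34945 of 45101 carried 1 gene symbol, 932 several and 9160 none; 34741 were matched to RefSeq. Probe sets at or above the 40th percentile of their array on at least 3 arrays were kept (32426), giving 14245 genes, each read from its brightest probe set. A group-means model was fitted to all 17 arrays with limma 3.58.1 (R 4.3.3) and an intensity trend, with 12 residual degrees of freedom; p-values were Benjamini-Hochberg adjusted over the 14245 genes and called at 0.05. The scripts were tested on simulated data. Named genes are every called helicase, the extremes of each comparison, members whose probe sets disagree and Ddx3x as a sex check. The members and all lists were chosen with earlier results of these data known. The number of arrays limits the precision. Alternatives covered normalisation, filter, probe-set summary, batch-wise fits, array weights, the trend, a replicate block and each array left out.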

Additional observations from a re-analysis of the deposited data

Results flagged for a closer look

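Of 96 sets of 4 arrays, 8 held an array far from the other 3, where chance gives about 1 in 20. In the knock-out graft these were Ddx21 (replicate 1 at 4.33, others 4.18 to 4.20), Ddx23 (replicate 2 at 1.10, others 1.45 to 1.50), Ddx49 (replicate 2 at 3.22, others 3.60 to 3.67), Dhx16 (replicate 1 at 4.32, others 4.58 to 4.62), Dhx34 (replicate 2 at 2.70, others 2.51 to 2.54) and Dhx38 (replicate 1 at 2.02, others 2.51 to 2.61). In wild type they were Ddx50 (replicate 4 at 4.65, others 4.70) and Ddx54 (replicate 2 at 6.47, others 5.95 to 5.99).

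The knock-out difference exceeded the recipient difference, by limma's interaction test, for Ddx54 (0.89), Dhx30 (0.84), Ddx43 (0.82), Ddx50 (0.64), Ddx21 (0.62), Ddx56 (0.59), Ddx10 (0.57), Ddx39a (0.54), Ddx17 (0.52) and Ddx39b (0.48). Of these, Ddx43 entered the test only through the group in which it is high.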

How the results depend on the processing

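No helicase called in the main fit changed direction under any alternative run. Among those not called, Dhx38 stood at 0.03 in the knock-out and was called lower with its probe sets averaged. Ddx21, Ddx43, Ddx50, Ddx54 and Dhx30 were called in the knock-out under all 26 alternatives, and Ddx50, Ddx54 and Dhx30 in the interaction under all 25. Of these, Ddx43 passed the filter only through the group in which it is high. The count of helicases higher in the knock-out was 14. It was lowest with the knock-out GPI+ arrays averaged, as was the count over all genes. With cyclic loess it was 18 (16.9% of all genes), and with 1 array left out 11 to 16 (1672 to 2139 of all genes). Helicases lower in the knock-out numbered 3 with a gene's probe sets averaged (Ddx4, Dhx29, Dhx38), where 2341 of 14245 genes were lower. They numbered 1 without the intensity trend (Ddx4, with 2047 of all genes lower). With 1 array left out they numbered 0 to 1 (1626 to 2137 of all genes). Ddx4 passed the filter only through the group in which it is high. In the recipients 1 was lower with probe sets averaged (Ddx1, with 434 of all genes lower), and 0 to 1 with 1 array left out (285 to 666 of all genes). Against wild type, the knock-out graft had 0 higher with no filter (888 of all genes) or with the block (833 of all genes). It had 0 to 1 higher with 1 array left out (741 to 1130 of all genes). With probe sets averaged it had 1 lower (764 of all genes). The wild-type graft had 2 lower with array weights (Ddx6 and Dhx9, with 172 of all genes lower), and 0 to 1 with 1 array left out (12 to 140 of all genes). The interaction count of 10 was lowest with the GPI+ arrays averaged, as was the count over all genes. It was 7 to 10 with 1 array left out (977 to 1535 of all genes). With probe sets averaged, 1 helicase was lower in the interaction, as were 1557 of all genes. The cause of these changes was not tested.

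Deviations of same-numbered arrays from their group means correlated at -0.0385 to -0.0172 in the knock-out. The best match was same-numbered for 0 of 3 knock-out GPI- arrays, and for 2 of 3 wild-type graft arrays set against wild type. Deviations sum to 0 within such small groups, so this cannot tell whether same-numbered fractions shared an animal. With the replicate number as a block, 13 helicases were higher in the knock-out (13.8% of all genes) and 6 in the interaction (6.97% of all genes).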

Other observations

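Wild-type replicate 2 was the highest of the 4 wild-type arrays in 21 of the 48 helicases (43.8%), while it was the highest in 24.7% of all genes, and wild-type replicate 1 was highest in 3 (6.25% against 25.9%).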
